A study of Arabidopsis thaliana with 9 samples.

Results

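Leaves of a line labelled as an IAA26 knockout were compared with leaves of the wild type across all genes read deeply enough to be tested. The members of the comparison were 6 RNA-seq libraries of the 9 in the series, chosen by their labels: 3 of wild-type Arabidopsis thaliana and 3 of the knockout-labelled line. All plants were of the natural accession Shahdara and 9 week old, and the labels name no treatment beyond the genotype. A further group of 3 libraries, of the same accession and age, came from the IAA26 stable line, here the stabilised line. It shared the fit and served for the direct comparison of both lines. The labels call the libraries of each group biological replicates. The type and position of the lesion, the number of independent lines, any pooling of plants and the hour of harvest were not stated in the labels, which limits the line as a model. Levels are RPKM (exon reads scaled to exon length and library size) as the authors deposited them. Fold changes are log2 values of knockout-labelled over wild type with their standard error (SE). Each adjusted p comes from the quasi-likelihood test of edgeR, adjusted by Benjamini-Hochberg over 19409 genes, and a gene was called where it was under 0.05.

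IAA26 belongs to the Aux/IAA family, short-lived nuclear proteins that bind auxin response factors and hold back the genes these factors would activate. Auxin brings Aux/IAA proteins to TIR1/AFB ubiquitin ligases for degradation, which frees the response factors. Leaf transcripts also follow the circadian clock, in which the dawn-expressed MYB factors LHY and CCA1 and the later-expressed PRR and evening-complex genes repress each other.

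IAA26 itself (AT3G16500, chromosome 3, 5612203 to 5614803 in TAIR10, minus strand) was still transcribed in the knockout-labelled leaves. It was read at 17.5, 18.5 and 20.3 RPKM in the wild type and 16.7, 17.2 and 12.4 RPKM in the knockout-labelled line. The groups did not overlap, and the difference did not pass the test (log2 -0.40, SE 0.11, adjusted p = 0.12). Reads across exon junctions made up 51.5%, 50.2% and 51.9% of its exon reads in the wild type and 53.9%, 51.6% and 59.8% in the knockout-labelled line, so spliced transcript was present in each library. Intron reads made up 4.70%, 3.66% and 4.37% of its gene reads in the wild type and 5.38%, 6.03% and 5.96% in the knockout-labelled line. With no position of the lesion at hand these counts cannot test the label, hence the wording knockout-labelled.

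Within 500 kb on either side of IAA26, 220 genes were tested, of which 4 were called higher and 0 lower (1.82%, against 1.66% of all genes tested). The 1 called gene within 100 kb was AHP4, a histidine phosphotransfer protein of cytokinin signalling. Its lowest coordinate on chromosome 3 lies at -58.0 kb from the lowest coordinate of IAA26. AHP4 is on the plus strand. This gene was read at 3.04, 3.42 and 4.72 RPKM in the wild type and 19.0, 19.0 and 10.8 RPKM in the knockout-labelled line. All knockout-labelled libraries lay above the wild-type ones (log2 2.00, SE 0.28, adjusted p = 0.0218).

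The libraries held 33066761 to 45346301 exon reads, of which 97.1% to 97.4% were unique. Photosynthetic leaf markers were abundant in all 6 libraries, with a level summed over 8 markers of 16186 to 16915 RPKM in the wild type and 12918 to 16290.1 RPKM in the knockout-labelled line. Of 7 seed markers 5 were listed at 0 in all 6 libraries. Knockout-labelled 3 stood apart in floral genes and was the highest in meristem genes, followed by knockout-labelled 2. The sum over 10 flower markers was 45.4 RPKM there, against 17.4 to 24.5 RPKM in the wild type and 21.7 and 21.0 RPKM in knockout-labelled 1 and 2. The sum over 5 shoot meristem markers was 0.269 to 0.346 RPKM in the wild type and 0.586, 2.14 and 4.09 RPKM in the knockout-labelled libraries. Knockout-labelled 3 was also the library of its group nearest to the wild-type mean for 112 of 180 genes called higher and 65 of 142 called lower. The share of nuclear exon reads that crossed exon junctions was 51.0% ± 0.241 (SD, n = 3) in the wild type and 49.99% ± 0.272 (SD, n = 3) in the knockout-labelled line. The share from chloroplast genes was 0.339% ± 0.0137 (SD, n = 3) in the wild type and 0.274% ± 0.0226 (SD, n = 3) in the knockout-labelled line. Neither share overlapped between groups, and for each p = 0.1 (exact permutation test, two-sided), the lowest value possible with 3 against 3. Their part in the results was not tested. In bulk leaf RNA, fewer cells of a type and less RNA per cell cannot be told apart.

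The design text asks how the line differs from the wild type in development and defence. The lists and their members were chosen with earlier results of these data known, so list counts here and below are descriptions. Of the listed genes tested, 6 of 16 day and evening clock genes and 4 of 17 genes of starch breakdown were higher in the knockout-labelled leaves. So were the cold regulators CBF1 and CBF3, 2 of 10 tested. Lower were 4 of 11 genes of the iron deficiency response, 4 of 17 sulphur genes and 7 of 15 genes of aliphatic glucosinolates. In the nitrogen list 2 of 17 were lower, in the aquaporin list 3 of 17, and in the starch list 1, BAM9. Other lists held at most 1 fall each. Of 19409 genes, 322 (1.66%) were called, 180 higher (0.927%) and 142 lower (0.732%). The median size was 0.84 on the log2 scale for rises and 0.92 for falls, and 63 rises and 55 falls reached 2-fold. Genes that fell were the more strongly expressed, with a median level of 28.8 RPKM over the 6 libraries against 9.19 RPKM for genes that rose and 9.25 RPKM for all genes tested. The groups did not overlap for any called gene, which held for 29.3% of all genes tested (15.1% higher and 14.3% lower). With library totals in place of TMM scaling, 204 genes were higher and 94 lower. The median fold change of all genes was 0.12 with library totals and 0.00 with TMM, and the printed RPKM carry that shift of 0.12.

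The number of calls depended on every single library. It was 61 higher and 55 lower without wild type 1, 43 and 51 without wild type 2, and 17 and 13 without wild type 3. Without knockout-labelled 1 it was 11 higher and 0 lower, without knockout-labelled 2 it was 10 and 0, and without knockout-labelled 3 it was 74 and 70, all by edgeR. At an unadjusted p under 0.05 edgeR counted 3809 genes with all libraries, and DESeq2 called 784 higher and 994 lower. All 322 fold changes kept their sign when any 1 library was left out. That outcome was nearly fixed, because the groups did not overlap for any called gene, so it gives no added support. The 10 genes called whichever library was left out were all higher. Every other call below was lost without at least 1 library. With the 6 compared libraries alone in the fit, 143 genes were higher and 154 lower, and 202 of the 322 calls were made again. Among the called genes named below in these Results, 21 missed the threshold in that fit (adjusted p = 0.0508 to 0.0733): OPT3, FRO3, AT1G47400, APR2, APK1, FMOGS-OX1, PAD3, CBF1, RBG8, PIP2B, TIP1-1, BES1, ARR8, SBP2, GLDP2, PCAP1, PER71, ERF020, AT2G27420, AT2G20515 and AT4G01580.

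**Figure D1:**
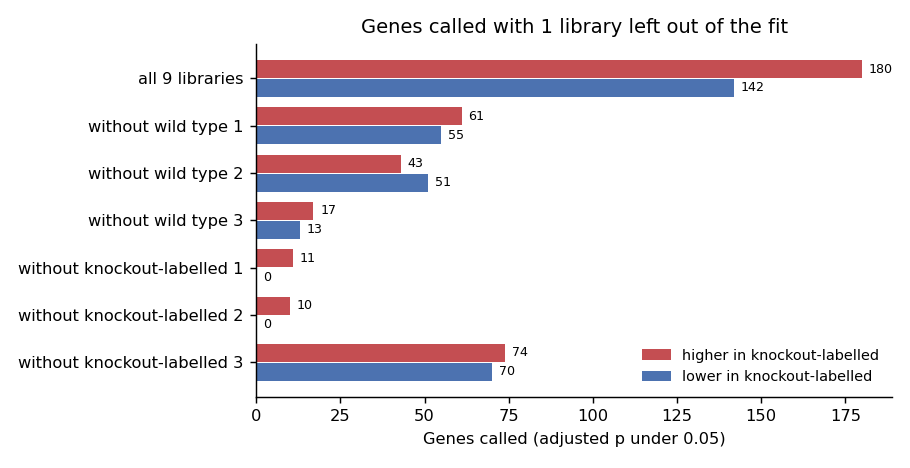
Number of genes called higher (red) and lower (blue) in knockout-labelled against wild-type leaves, with all 9 libraries in the fit and with each of the 6 compared libraries left out. The counts fall from 180 and 142 to as few as 10 and 0.

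Among these 10 genes, the cold-response factor CBF3 (AT4G25480, listed as DREB1A, chromosome 4, 13018010 to 13019400) rose most. It was read at 0.234, 0.285 and 0.391 RPKM in the wild type and 5.34, 5.30 and 4.65 RPKM in the knockout-labelled line. The lowest knockout-labelled library was above the highest wild-type library (log2 3.94, SE 0.20, adjusted p = 0.000541). The clock repressor PRR5 (AT5G24470, listed as APRR5, chromosome 5, 8356204 to 8358546) stood at 0.421, 0.498 and 0.487 RPKM in the wild type and 2.74, 3.87 and 3.70 RPKM in the knockout-labelled line (log2 2.76, SE 0.17, adjusted p = 0.000836). FKF1 (AT1G68050, listed as ADO3, chromosome 1, 25508639 to 25510907), a blue-light receptor and F-box protein that acts in the afternoon, stood at 0.163, 0.144 and 0.114 RPKM in the wild type and 0.677, 0.858 and 0.926 RPKM in the knockout-labelled line (log2 2.43, SE 0.20, adjusted p = 0.0035). Both were weakly expressed, and neither had overlapping groups. TIM22-2, annotated as a subunit of a mitochondrial import translocase, stood at 1.28, 1.31 and 1.28 RPKM in the wild type and 5.40, 6.09 and 5.63 RPKM in the knockout-labelled line (log2 2.03, SE 0.12, adjusted p = 0.000836). AT1G56300, a DnaJ-domain gene, rose from 1.65, 1.22 and 0.981 RPKM to 8.21, 10.01 and 7.39 RPKM (log2 2.62, adjusted p = 0.00261). HIPP26, of a family of metal-binding isoprenylated proteins, rose from 8.70, 10.4 and 8.76 RPKM to 30.5, 36.5 and 27.8 RPKM (log2 1.65, adjusted p = 0.00157). For these genes too all knockout-labelled libraries were higher than all wild-type libraries, as for every gene called higher. The bZIP factor ABF1 of abscisic acid responses (log2 1.57), the RING and ankyrin-repeat protein XBAT31 (1.39), AT1G70420 (1.16) and the CBS-domain protein CBSDUF2 (0.96) completed the set. XBAT31 was the most abundant of the 10, at 57.2, 56.0 and 45.1 RPKM in the wild type and 149.5, 167 and 134 RPKM in the knockout-labelled line.

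**Figure D2:**
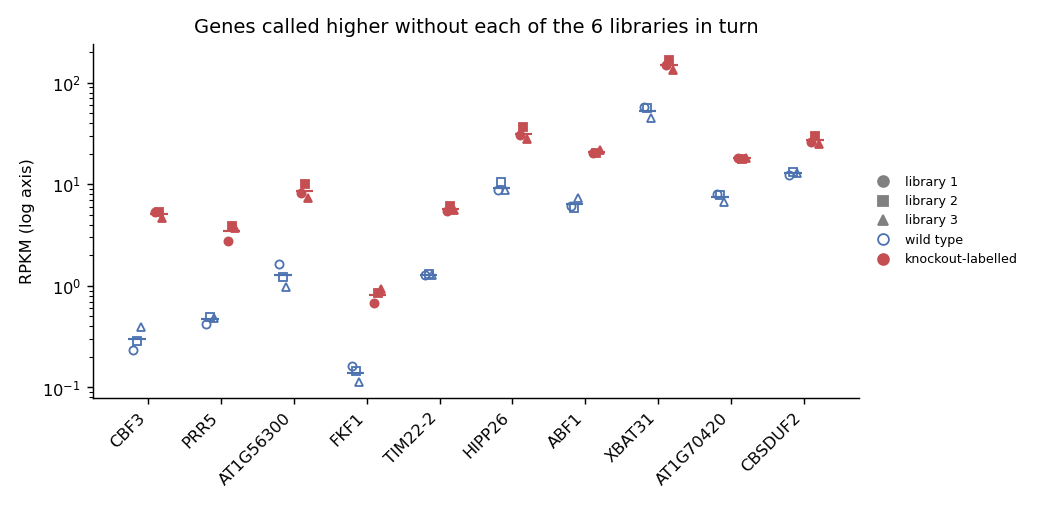
RPKM on a log axis in the 3 wild-type libraries (open, blue) and the 3 knockout-labelled libraries (filled, red) for the 10 genes called whichever library was left out, with log2 fold changes from 0.96 for CBSDUF2 to 3.94 for CBF3 (DREB1A). Symbols are libraries 1 to 3 of a group, bars are group means, and no gene's groups overlap.

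Of 16 day and evening genes tested, 6 were higher and 0 lower (against 0.927% and 0.732% of all genes tested). In this list 14 genes had a fold change above 0, and the median was 0.69, against 0.00 over all genes. Beside PRR5 and FKF1, PRR3, another pseudo-response regulator, rose from 1.57, 1.101 and 1.40 RPKM to 4.01, 4.09 and 2.82 RPKM (log2 1.30, adjusted p = 0.0206). ELF3, the scaffold of the evening complex, rose from 2.86, 2.81 and 3.41 RPKM to 6.80, 7.84 and 5.70 RPKM (log2 1.04, adjusted p = 0.0164). The RNA-binding proteins RBG7 and RBG8, whose transcripts cycle under the clock, were far more abundant. RBG7 rose from 95.0, 89.2 and 76.2 RPKM to 162, 169 and 192 RPKM (log2 0.90, adjusted p = 0.0309), and RBG8 from 132, 155 and 171 RPKM to 247, 292 and 244 RPKM (log2 0.66, adjusted p = 0.0455). The groups did not overlap in any of these 6 genes, as in every called gene. Over the list, 11 members were higher without overlap and 1 lower, against 15.1% and 14.3% of all genes tested. The partners of ELF3 gave no call, with fold changes of 1.13 for ELF4, -0.60 for LUX and -0.73 for BOA. TOC1, the evening member of the PRR family, gave 0.24.

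Of 12 dawn-phased genes tested, 1 was lower (against 0.732% of all genes tested) and 0 higher, with a median of -0.23. LHY (AT1G01060, chromosome 1, 33365 to 37871) stood at 139.6, 83.1 and 114 RPKM in the wild type and 35.2, 34.4 and 22.8 RPKM in the knockout-labelled line. All knockout-labelled libraries lay below the lowest wild-type library (log2 -1.99, SE 0.25, adjusted p = 0.0175). CCA1, the MYB factor most like LHY, was at 199 ± 51.3 RPKM in the wild type and 171 ± 33.6 RPKM in the knockout-labelled line (SD, n = 3 each) and did not pass the test (log2 -0.34, adjusted p = 0.514). Of the list, 4 genes were above 0, and its library means overlapped between the groups. The mean of the day and evening genes lay 0.72, 0.79 and 0.78 above the wild-type mean in knockout-labelled 1, 2 and 3, on the log2 CPM scale. The wild-type libraries lay between -0.02 and 0.01. No hour of harvest is given, so a shift in phase and a change in level cannot be told apart.

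**Figure D3:**
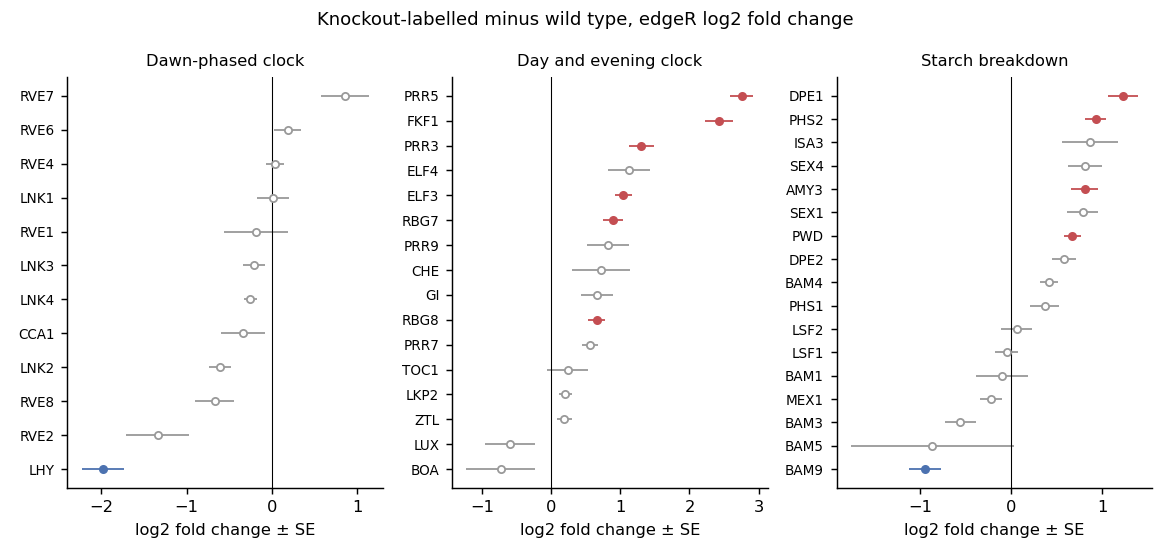
Fold change (log2, knockout-labelled over wild type) with its SE for each tested gene of the dawn-phased clock, the day and evening clock and starch breakdown. Filled red points were called higher, filled blue points lower, and open points did not pass the test. LHY is at -1.99 and PRR5 at 2.76.

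Clock MYB factors are known to bind the evening element, so the 250 bases before each gene's annotated start were read from the TAIR10 reference sequence of NCBI RefSeq and searched for AAAATATCT on both strands. The element stood in front of 22 of the 180 genes called higher (12.2%), 4 of the 142 called lower (2.82%) and 492 of all 19291 genes with a promoter read (2.55%). The 492 genes had a median fold change of 0.10 and 65.4% of them lay above 0, against 0.00 and 50.3% for genes without it. PRR5, FKF1, RBG7 and RBG8 were among the 22. So were XBAT31, the fatty acid elongase gene KCS8, the starch dikinase gene PWD (listed as GWD3) and RBCX1, a chaperone gene of Rubisco assembly. TOC1, LUX and BOA carry the element too and were not called, whereas PRR3 and ELF3 were called and have no match in this window. The G-box, CACGTG, gave 13.3%, 12.7% and 7.47% for genes called higher, genes called lower and all genes. The CRT/DRE core, CCGAC, which CBF factors bind, gave 11.7%, 10.6% and 12.996% in the same order. The W-box, TTGACC, gave 6.67%, 14.8% and 12.3%, the auxin response element, TGTCTC, gave 9.44%, 8.45% and 10.5%, and the CCA1-binding site, AAAAATCT, gave 8.33%, 7.04% and 6.84%. None of these motifs contains another, all were searched on both strands, and a match describes letters, not a bound site. The letters are those of the reference sequence, and the promoters of Shahdara itself were not read. The promoters of 3 clock genes that rose and of TOC1, which was not called, are shown because they carry the element. It is in capitals in either orientation, and each sequence is read 5′ to 3′ on the gene's strand up to the base before its start.
PRR5, chr5:8358547-8358796, minus strand: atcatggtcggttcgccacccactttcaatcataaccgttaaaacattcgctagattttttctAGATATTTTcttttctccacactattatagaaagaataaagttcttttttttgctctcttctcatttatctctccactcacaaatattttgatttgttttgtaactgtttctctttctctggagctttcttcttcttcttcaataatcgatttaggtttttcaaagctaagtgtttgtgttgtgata
FKF1, chr1:25508389-25508638, plus strand: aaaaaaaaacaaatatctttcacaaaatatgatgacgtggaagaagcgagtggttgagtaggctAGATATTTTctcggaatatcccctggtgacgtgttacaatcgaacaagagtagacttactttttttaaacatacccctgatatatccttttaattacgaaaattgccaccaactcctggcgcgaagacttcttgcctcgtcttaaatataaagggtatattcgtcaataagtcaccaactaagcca
RBG7, chr2:9266558-9266807, minus strand: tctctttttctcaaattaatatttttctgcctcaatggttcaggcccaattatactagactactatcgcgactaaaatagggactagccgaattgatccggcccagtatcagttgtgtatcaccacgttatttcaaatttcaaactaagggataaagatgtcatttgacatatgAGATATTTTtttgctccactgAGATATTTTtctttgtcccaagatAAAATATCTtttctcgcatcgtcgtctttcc
TOC1, chr5:24674713-24674962, plus strand: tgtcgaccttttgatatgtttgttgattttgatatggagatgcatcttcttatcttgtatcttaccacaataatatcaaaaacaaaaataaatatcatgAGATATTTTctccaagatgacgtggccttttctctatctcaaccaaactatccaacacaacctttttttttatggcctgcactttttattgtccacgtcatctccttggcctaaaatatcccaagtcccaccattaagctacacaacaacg
The element begins at -187 from the start in PRR5, at -186 in FKF1 and at -151 in TOC1. RBG7 has 3 copies, at -76, -55 and -31.

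Enzymes of leaf starch turnover at night were mostly above 0. Of 17 genes of starch breakdown tested, 4 rose and 1 fell (against 0.927% and 0.732% of all genes tested). The median was 0.42, and 10 members were higher without overlap, against 15.1% of all genes tested. DPE1, the plastid disproportionating enzyme, rose from 5.72, 8.74 and 9.42 RPKM to 19.5, 20.8 and 20.3 RPKM (log2 1.23, SE 0.16, adjusted p = 0.0184). PHS2, the cytosolic glucan phosphorylase, rose from 51.7, 51.2 and 57.7 RPKM to 108, 128 and 95.6 RPKM (log2 0.93, adjusted p = 0.0177). AMY3, a plastid alpha-amylase (log2 0.81, adjusted p = 0.0412), and PWD, which phosphorylates glucan chains (log2 0.67, adjusted p = 0.0191), rose less. BAM9, a beta-amylase-like protein, fell from 45.2, 33.6 and 43.9 RPKM to 23.5, 21.4 and 23.9 RPKM (log2 -0.95, adjusted p = 0.0447). The plastid beta-amylase BAM3 gave -0.56 and did not pass the test with 9 libraries (adjusted p = 0.128), but did with the 6 compared libraries alone (adjusted p = 0.045).

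Among light and photoperiod genes, single members changed and the medians lay near 0. Over all genes tested, 0.927% were called higher and 0.732% lower. Of 23 B-box factors 1 rose, BBX22 (listed as LZF1), a partner of HY5 in light responses, from 9.996, 10.4 and 16.4 RPKM to 46.2, 45.5 and 33.2 RPKM (log2 1.65, SE 0.21, adjusted p = 0.0175). Of 27 light receptors and growth regulators 1 fell, PIF3, a phytochrome-interacting factor, from 10.2, 8.22 and 10.1 RPKM to 5.76, 5.64 and 5.55 RPKM (log2 -0.86, adjusted p = 0.0175). Of 19 photoperiod genes and floral repressors 1 fell, MAF5, a relative of FLC, from 10.2, 6.19 and 8.47 RPKM to 1.27, 1.87 and 1.96 RPKM (log2 -2.40, SE 0.29, adjusted p = 0.0175). Its relatives MAF2, MAF3 and MAF4 gave 0.34, 0.26 and -0.53, and the florigen gene FT gave 0.62, none past the test. The medians of the 3 lists were -0.02, -0.04 and 0.04. The signs of the B-box and light medians turned with library totals alone.

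Cold regulators were led by the CBF genes, tandem transcription factors that switch on freezing tolerance. Of 10 tested, 2 rose (against 0.927% of all genes tested), CBF3 and CBF1. CBF1, listed as DREB1B, stood at 0.0669, 0.257 and 0.163 RPKM in the wild type and 1.23, 0.849 and 1.54 RPKM in the knockout-labelled line (log2 2.74, SE 0.46, adjusted p = 0.0336). CBF2 gave 2.34 (adjusted p = 0.0543). ICE1 and CAMTA3, which act upstream of the CBF genes, gave 0.01 and 0.12, and the list median was -0.01, with the opposite sign under library totals. Of 17 cold-protective proteins 1 rose, COR15B, a chloroplast protein that protects membranes, from 1.95, 2.94 and 1.92 RPKM to 7.54, 7.57 and 13.6 RPKM (log2 1.97, adjusted p = 0.0405). The others ran from -1.38 for RD29B to 1.65 for GOLS3, and the median was 0.21. Of 9 desaturases of membrane lipids 1 rose, ADS2, from 13.03, 12.9 and 14.5 RPKM to 29.0, 40.7 and 37.2 RPKM (log2 1.29, adjusted p = 0.0192), while 6 had fold changes below 0.

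Genes of the iron deficiency response included falls, and 2 of its regulators had the largest falls among the named genes. Of 11 genes tested, 4 were lower (against 0.732% of all genes tested) and 0 higher. Without overlap 9 were lower, against 14.3% of all genes tested, and the list median was -1.12. BHLH100, of a subgroup of bHLH factors that drive iron uptake, stood at 18.6, 5.37 and 5.20 RPKM in the wild type and 0.0488, 0.179 and 0.480 RPKM in the knockout-labelled line (log2 -5.44, SE 1.05, adjusted p = 0.0475). Its relative BHLH38, listed as ORG2, stood at 17.9, 6.90 and 7.09 RPKM in the wild type and 0.235, 0.239 and 0.952 RPKM in the knockout-labelled line (log2 -4.57, SE 0.84, adjusted p = 0.0423). In both genes wild type 1 was the highest library, and knockout-labelled 3 was the highest of its group. Without wild type 1 the fold changes were -4.55 and -3.95, and without knockout-labelled 3 they were -6.50 and -5.61. With edgeR neither was called without either library (adjusted p = 0.0557 to 0.0968). OPT3, listed as ATOPT3, a phloem iron transporter, fell from 182, 131 and 184 RPKM to 99.8, 88.0 and 90.6 RPKM (log2 -0.95, adjusted p = 0.0423). FRO3, a mitochondrial ferric reductase, fell less (log2 -0.64, adjusted p = 0.0412). BTS, a ubiquitin ligase, and PYE, a bHLH factor, both regulators of iron homeostasis, gave -1.12 and -1.33 and did not pass. AT1G47400, outside the list, fell from 30.5, 11.1 and 17.7 RPKM to 4.604, 2.69 and 4.07 RPKM (log2 -2.49, adjusted p = 0.0302). Of 7 iron storage and transport genes 0 were called by edgeR. An unadjusted p under 0.05 was reached by 2, both higher, against 3809 of all 19409 genes tested. All 7 were above 0 (median 0.34). The ferritin FER4 came nearest, at 6.29, 5.33 and 3.34 RPKM against 14.9, 16.8 and 9.69 RPKM (log2 1.35, adjusted p = 0.0506).

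Sulphate assimilation and the glucosinolates that draw on it had fold changes below 0 throughout. Of 17 sulphur genes tested, 4 were lower (against 0.732% of all genes tested) and 0 higher, and all 17 were below 0 (median -0.68). APR1, which reduces activated sulphate, fell from 168, 183 and 184 RPKM to 118, 128 and 116 RPKM (log2 -0.68, SE 0.09, adjusted p = 0.0184). The kinase APK2, which makes the sulphate donor for glucosinolates, fell from 208, 235 and 193 RPKM to 106, 89.1 and 129 RPKM (log2 -1.08, adjusted p = 0.0438), and APK1 by 0.79 on the log2 scale (adjusted p = 0.0494). APR2 fell from 381, 262 and 360.5 RPKM to 172, 168 and 197 RPKM (log2 -1.01, adjusted p = 0.0297), but 45.04% of its reads were unique to it, so reads of a near copy cannot be told apart. The sulphur deficiency markers SDI1 and LSU1 gave -1.86 and -0.67 and were not called. Wild type 3 was the highest library in both. SDI1 was at 8.93, 9.14 and 49.1 RPKM in the wild type and 10.9, 5.17 and 4.07 RPKM in the knockout-labelled line. LSU1 was at 14.2, 18.1 and 72.1 RPKM against 35.9, 20.4 and 14.7 RPKM. With wild type 3 left out the list median was -0.50. SULTR4;1 of the list gave -0.59 and did not pass with 9 libraries (adjusted p = 0.0501), but did with the 6 compared libraries alone (adjusted p = 0.0314).

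Of 15 genes of aliphatic glucosinolates, methionine-derived defence compounds, 7 were lower (against 0.732% of all genes tested) and 0 higher. All 15 were below 0 (median -0.85), and 14 were lower without overlap, against 14.3% of all genes tested. The calls were the entry enzyme CYP79F2, the C-S lyase SUR1, the glucosyltransferase UGT74C1, the sulfotransferases SOT17 and SOT18, and the side-chain oxygenases FMOGS-OX1 and FMOGS-OX3. UGT74C1 fell from 107, 99.9 and 106 RPKM to 56.8, 57.0 and 69.5 RPKM (log2 -0.88, SE 0.12, adjusted p = 0.0184). FMOGS-OX1 fell from 78.7, 77.2 and 77.0 RPKM to 35.6, 28.1 and 47.8 RPKM (log2 -1.17, adjusted p = 0.0455). MYB28, the main regulator of the pathway, gave -0.21 and was not called. MYB29 and MYB76 of the same list gave -0.75 and -1.14 and were not called either (adjusted p = 0.177 and adjusted p = 0.149). IPMI1, an isopropylmalate isomerase and among the most abundant genes that fell, went from 244, 267 and 264 RPKM to 148, 134 and 162 RPKM (log2 -0.92, adjusted p = 0.0175). Of 13 genes of indole glucosinolates and camalexin all 13 were below 0 (median -1.06), and 1 was called. That was PAD3, listed as CYP71B15, the last enzyme of camalexin synthesis, at 48.5, 5.95 and 8.23 RPKM against 1.18, 1.24 and 0.847 RPKM (log2 -4.39, SE 0.82, adjusted p = 0.0454). Wild type 1 was far above the other wild-type libraries, and without it the fold change was -2.81 (adjusted p = 0.0152). UGT74B1 of the same list gave -0.94 and did not pass with 9 libraries (adjusted p = 0.0641). With the 6 compared libraries alone UGT74B1 was called (adjusted p = 0.0446) and PAD3 was not (adjusted p = 0.0733).

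Nitrate assimilation fell at both reducing steps. Of 17 nitrogen genes tested, 2 were lower (against 0.732% of all genes tested) and 0 higher, with a median of -1.14. Nitrate reductase NIA2 fell from 490.2, 313 and 403 RPKM to 141, 145 and 169.6 RPKM (log2 -1.52, SE 0.19, adjusted p = 0.0175). Nitrite reductase NIR1 fell from 97.8, 79.9 and 95.0 RPKM to 41.7, 37.9 and 53.4 RPKM (log2 -1.14, SE 0.19, adjusted p = 0.0319). Neither gene's groups overlapped. The nitrogen-responsive repressors LBD37, LBD38 and LBD39 gave -1.15, -1.53 and -1.92, and the plastid glutamine synthetase GLN2 gave -0.33, none past the test. Knockout-labelled 3 was the library of its group nearest the wild type in the nitrogen and aliphatic glucosinolate lists, with list means of -0.55 and -0.52 relative to the wild type. The values were -1.18 and -0.80 in knockout-labelled 1 and -1.28 and -1.05 in knockout-labelled 2.

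**Figure D4:**
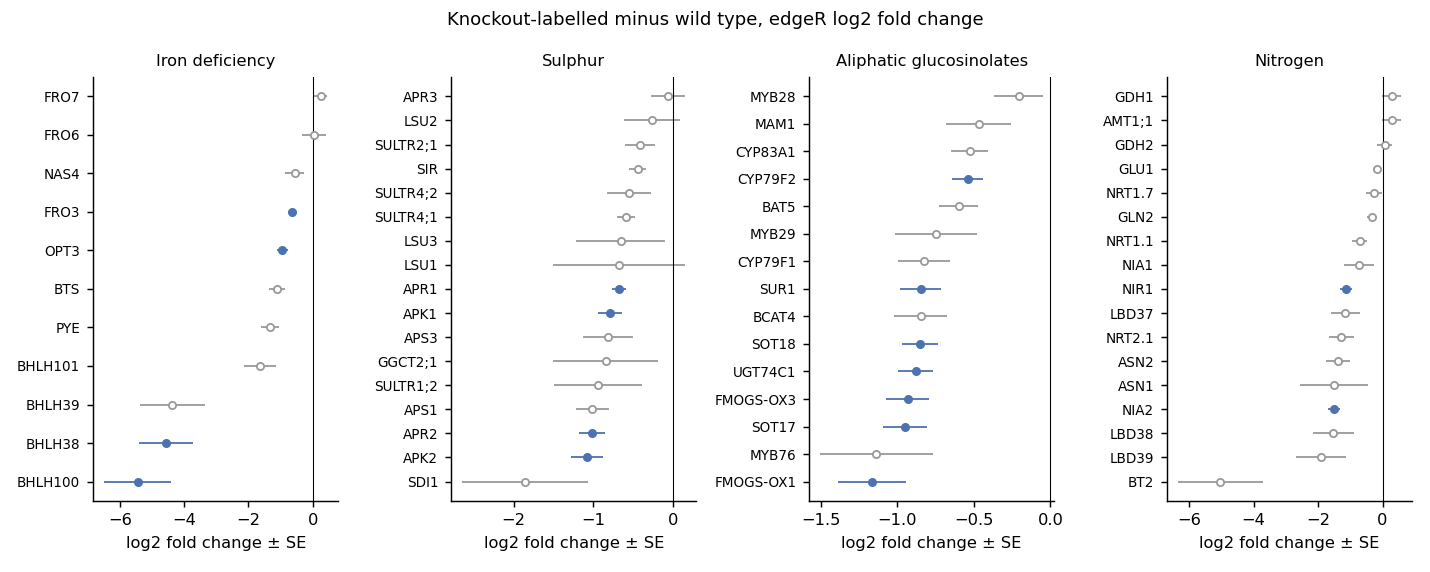
Fold change (log2, knockout-labelled over wild type) with its SE for each tested gene of the iron deficiency, sulphur, aliphatic glucosinolate and nitrogen lists. Filled blue points were called lower and open points did not pass the test. BHLH100 is at -5.44, and all sulphur and aliphatic glucosinolate genes lie below 0.

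Jasmonate genes had mostly negative fold changes, and whether any was called depended on the libraries in the fit. Jasmonate is the lipid-derived hormone of wounding and chewing damage, and it induces its own synthesis and its JAZ repressors. Of 13 synthesis genes 12 were below 0 (median -1.07), of 6 turnover genes all 6 (median -1.20), of 20 signalling genes 16 (median -0.63) and of 14 output genes 12 (median -1.38). With all 9 libraries edgeR called 0 in each of the 4 lists. At an unadjusted p under 0.05, reached by 3809 of all 19409 genes, it counted 8, 2, 8 and 8 lower and 0 higher in these lists. With the 6 compared libraries alone it called 7 of these genes lower: AOS and ACX1 of synthesis (adjusted p = 0.0446 and adjusted p = 0.0465), ILL6 of turnover (0.045), the repressors JAZ8 and JAZ9 (0.0463 and 0.0355), and TAT3 and ERF1B of the output (0.0314 and 0.0394). The other values here are from the fit of 9. JAZ9, a repressor, stood at 217, 369 and 253 RPKM in the wild type and 83.5, 69.4 and 100.4 RPKM in the knockout-labelled line (log2 -1.83, SE 0.41, adjusted p = 0.0717). TAT3, a tyrosine aminotransferase induced by jasmonate, stood at 3.07, 4.41 and 2.24 RPKM in the wild type and 0.318, 0.550 and 0.364 RPKM in the knockout-labelled line (log2 -3.09, SE 0.76, adjusted p = 0.0853). Neither gene's groups overlapped. The peroxisomal oxidase ACX1 and the amidohydrolase ILL6 gave -0.64 and -1.70 (adjusted p = 0.0689 and adjusted p = 0.145). The wild-type libraries varied widely in the output genes. Their list mean ran from -1.04 in wild type 3 to 0.84 in wild type 1, and knockout-labelled 3, at -0.84, lay inside that range.

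**Figure D5:**
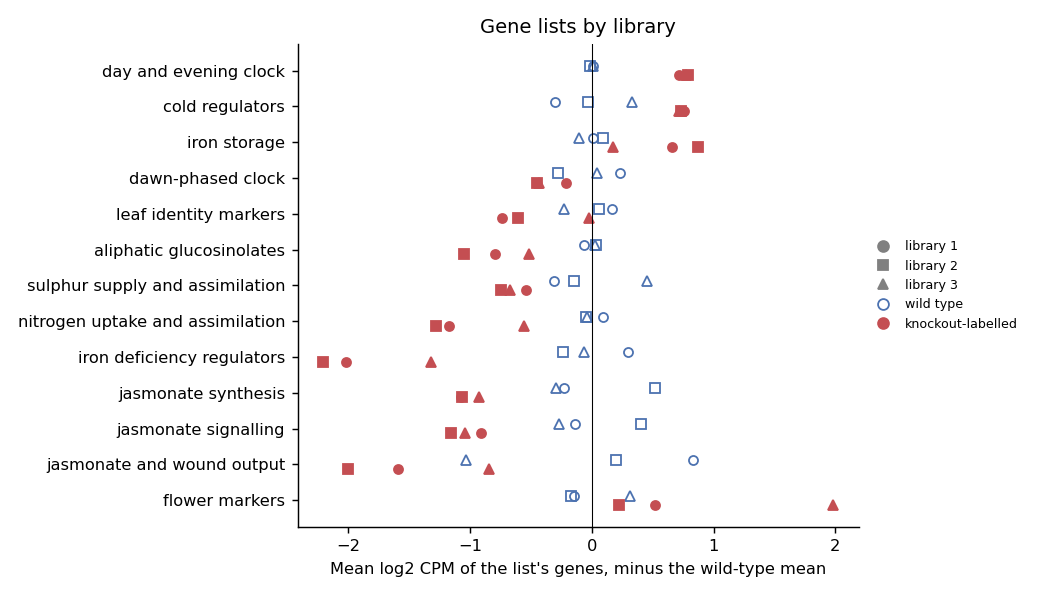
Mean log2 CPM of the tested genes of each list, minus the mean of the 3 wild-type libraries, by library (wild type open and blue, knockout-labelled filled and red). Day and evening clock genes lie at 0.72 to 0.79 in the knockout-labelled libraries, and jasmonate and wound output overlaps between the groups.

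Of 17 aquaporins 3 were lower (against 0.732% of all genes tested) and 0 higher, with a median of -0.40. PIP2-3, a plasma membrane water channel, fell from 88.1, 53.8 and 68.1 RPKM to 18.7, 19.1 and 19.6 RPKM (log2 -1.98, SE 0.29, adjusted p = 0.0228). Its close paralogue PIP2B fell from 183, 131 and 135 RPKM to 71.9, 50.5 and 78.4 RPKM (log2 -1.27, adjusted p = 0.0455), and the tonoplast channel TIP1-1 by 0.89 on the log2 scale (adjusted p = 0.0319). Of the reads of PIP2-3 and PIP2B, 95.4% and 95.5% were unique. The list mean of knockout-labelled 3, at -0.05, lay within the wild-type range of -0.27 to 0.33.

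The remaining lists held few calls (over all genes tested, 1.66% were called). ARR8, a response regulator, was the 1 of 12 cytokinin genes that fell (log2 -0.63, adjusted p = 0.0423). BES1, a transcription factor of brassinosteroid signalling, was the 1 of 10 in its list that fell, from 154, 107 and 107 RPKM to 72.3, 62.1 and 70.6 RPKM (log2 -0.96, adjusted p = 0.0412), while its relative BZR1 gave 0.05. In the gibberellin, phosphate and chlorophyll lists edgeR, with 9 libraries, called 0 of 15, 0 of 12 and 0 of 18 genes. At an unadjusted p under 0.05, reached by 3809 of all 19409 genes tested, it counted 5, 3 and 2 in these lists. Their members with the smallest p were GA2OX6, a gibberellin-inactivating oxidase (log2 -1.20, adjusted p = 0.0737, and adjusted p = 0.0469 with the 6 compared libraries alone, where it was called), the galactolipid synthase MGD2 (log2 0.29, adjusted p = 0.189) and PORB, a light-dependent protochlorophyllide reductase (log2 2.08, adjusted p = 0.107). PORB stood at 13.8, 31.8 and 13.1 RPKM in the wild type and 53.4, 71.6 and 139.6 RPKM in the knockout-labelled line. Among leaf, root, flower and meristem markers 0 were called. GAPA gave -0.59, SCR -0.44, AMS 1.39 and KNAT1 3.55, with adjusted p of 0.106 to 0.17. KNAT1 was at 0.0135, 0.0931 and 0.110 RPKM against 0.0981, 0.833 and 1.89 RPKM, and without knockout-labelled 3 its fold change was 2.48.

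Outside the lists, the largest rise among the named genes was that of DJC76, a J-domain protein. It stood at 1.55, 2.08 and 3.32 RPKM in the wild type and 21.3, 23.3 and 15.4 RPKM in the knockout-labelled line (log2 2.99, SE 0.30, adjusted p = 0.0113). The fatty acid elongase KCS8 (2.39), the cuticle regulator SHN2 (2.14), the abscisic acid factor ABI5 (2.11), RBCX1 (2.08), AT4G01580 (2.00), AT2G20515 (1.94) and AT1G11220 (1.88) rose as well on the log2 scale. ABI5 rose from 0.206, 0.208 and 0.235 RPKM to 0.830, 1.32 and 0.902 RPKM (log2 2.11, adjusted p = 0.0184). It was rarely read in the wild type. The most abundant genes that rose were AT1G13930, PCAP1, a cation-binding protein of the plasma membrane, PIFI, a plastid protein, RBG8 and OEP6, a plastid envelope protein. AT1G13930 stood at 293, 257 and 343 RPKM in the wild type and 651, 664 and 692 RPKM in the knockout-labelled line (log2 1.06, SE 0.13, adjusted p = 0.0175). OEP6 rose from 64.2, 53.9 and 51.9 RPKM to 178, 226 and 248 RPKM (log2 1.83, adjusted p = 0.0405), PCAP1 by 0.68 (adjusted p = 0.0477) and PIFI by 0.60 (adjusted p = 0.0454).

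Falls outside the lists are given for the genes that the rule of size, p and abundance named. The glycosyltransferase UGT74E1 fell from 2.71, 3.56 and 2.73 RPKM to 0.340, 0.294 and 0.619 RPKM (log2 -2.94, SE 0.34, adjusted p = 0.0164). The glutaredoxin GRXS10 fell from 7.30, 12.6 and 10.7 RPKM to 0.671, 2.07 and 1.88 RPKM (log2 -2.83, adjusted p = 0.0319), and the peroxidase PER71 by 2.69 on the log2 scale (adjusted p = 0.046). FOX5, a berberine-bridge-like oxidase, fell from 3.06, 2.44 and 3.02 RPKM to 0.761, 0.554 and 0.654 RPKM (log2 -2.22, adjusted p = 0.0125). CWINV1, a cell wall invertase that splits sucrose, fell from 3.86, 4.33 and 3.29 RPKM to 1.08, 0.780 and 1.17 RPKM (log2 -2.03, adjusted p = 0.0125). For each of these genes the groups were apart, as for every called gene. The cytochrome P450 CYP81D8 (-2.00), the glutathione transferase GSTF7 (-1.40), AT1G68238 (-3.19), AT1G65500 (-2.51), AT1G36622 (-2.19) and AT2G18690 (-2.17) fell too. The cysteine protease gene AT2G27420 gave -2.49 and the AP2-type factor ERF020 -2.71, and without wild type 1 the values were -1.79 and -2.09, no longer called. Smaller falls with small p were those of the glucose-6-phosphate dehydrogenase G6PD2 (-0.63), the F-box protein FBX6 (-0.75), AT1G68440 (-1.01) and AT4G15770 (-0.62). Beside NIA2, APR2 and IPMI1, the most abundant genes that fell were SBP2, a selenium-binding protein, from 566, 639.8 and 649 RPKM to 305, 261 and 391 RPKM (log2 -1.06, adjusted p = 0.0341), and GLDP2 of the photorespiratory glycine decarboxylase (log2 -0.67, adjusted p = 0.0455). No gene had 0 reads in all libraries of 1 group and at least 10 in every library of the other.

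The stabilised line shares the fit, and the direct difference, knockout-labelled minus stabilised, was called for 6.96% of all genes tested. It uses the same knockout-labelled libraries, so each gene's values stand side by side. PRR5 was at 13.6 ± 1.87 RPKM in the stabilised line and 3.44 ± 0.606 RPKM in the knockout-labelled line (SD, n = 3 each), a difference of -2.18 on the log2 scale (SE 0.15, adjusted p = 0.00252). FKF1, at 6.12 ± 0.596 RPKM, and RBG7, at 724 ± 45.8 RPKM, were also higher in the stabilised line (differences -3.09 and -2.25, adjusted p = 0.00181 and adjusted p = 0.00233). LHY was lower there, at 8.24 ± 2.405 RPKM (difference 1.72, adjusted p = 0.0153). These clock genes thus stood between the wild type and the stabilised line in the knockout-labelled leaves. CBF3, at 8.35 ± 1.85 RPKM, differed by -0.90 (adjusted p = 0.028). HIPP26 gave 0.08 (SE 0.11, adjusted p = 0.63) and BBX22 -0.14 (SE 0.20, adjusted p = 0.646), neither past the test. APR1 was at 192 ± 29.2 RPKM in the stabilised line, 178 ± 8.85 RPKM in the wild type and 121 ± 6.45 RPKM in the knockout-labelled line (difference -0.86, adjusted p = 0.00999). SOT17 gave -1.21 (adjusted p = 0.0132), MAF5 -3.09 (adjusted p = 0.00999) and UGT74E1 -4.55 (adjusted p = 0.00367), all lower in the knockout-labelled than in the stabilised line. OPT3 and FRO3 gave -0.17 and 0.01 and did not pass the test.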

How the data were processed

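RNA of leaves was sequenced in 9 libraries. Per the file headers, the authors deposited counts of total exon, unique exon, gene, intron and exon-exon reads per gene, which are not normalized, and RPKM. Exon length and gene positions, also deposited by the authors, served as descriptions. Genes lie on TAIR 10, per the submitters' processing notes. Loci where Shahdara may differ from this reference were not examined. The labels state neither the aligner nor any use of strand in counting. Reads of overlapping and antisense genes therefore cannot be told apart. All per-sample columns matched a sample, and no 2 libraries held identical counts.

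Total exon read counts were fitted with edgeR 4.0.16 (R 4.3.3): filterByExpr (minimum count 10, total 15, share 0.7), TMM factors, 1 mean per group over all 9 libraries, quasi-likelihood test, Benjamini-Hochberg 0.05. SE is the fold change divided by the root of F. Of 32833 genes 19409 were tested. DESeq2 1.42.0, limma 3.58.1 and other settings were alternatives. Counts simulated with this design held 2-fold and 4-fold changes in some genes with many reads. The fit, over 19409 genes, recovered 63% of the 2-fold and 98% of the 4-fold changes. It made 8 calls among unchanged genes. Recovery for weakly read genes was not tested, and the simulated libraries varied independently.

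The text names IAA26, the 15 largest rises and falls among called genes without overlap in RPKM and with a group mean of at least 1 RPKM, the 10 smallest p and 5 most abundant in each direction, and up to 6 called genes per list (the smallest p where none was called). Further list members, called or not, were named beside these without a fixed rule. Members and the 30 lists were chosen with earlier results of these data known. Of 427 list members, 416 were found by name and used.

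Replicate numbers were not used to pair the libraries in the main fit. The p-values measure the spread between libraries, which the labels call biological replicates. Promoters were cut from the NCBI RefSeq sequence of the same build, on which 32532 of 32548 loci had the same start and end.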

Additional observations from a re-analysis of the deposited data

How the results depend on the processing

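The sign of all 322 called fold changes was kept under every alternative in which the gene was tested, but the number of calls was not. With groups that did not overlap, leaving out 1 library could hardly turn a sign. DESeq2 called 1778 genes (784 higher, 994 lower) and gave IAA26 a fold change of -0.40 with an adjusted p of 0.0342. Library totals alone gave 94 lower. Leaving out 1 library at a time gave 10 to 144 calls, with 10 to 74 higher and 0 to 70 lower. With the 6 compared libraries alone 297 genes were called, among them 7 jasmonate genes that the fit of 9 did not call, and without knockout-labelled 3 in that fit, an alternative chosen after seeing the data, 386, of which 229 were lower. The cause was not tested. The median of the flower markers, 1.23, was 0.29 in that last fit, and that of the meristem markers, 2.14, was 0.72. DESeq2's size factors in edgeR gave 320 calls, limma-voom 325, unique reads 333, a minimum count of 50 345 and no filter 251.

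Same-numbered libraries of both groups did not deviate together (r = -0.23, -0.15 and -0.44 across genes). Deviations from the mean of 3 libraries sum to 0, so these r values cannot decide whether the labels' numbers pair the libraries. With the replicate number as a block 134 genes were called, 70 higher and 64 lower.

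List medians near 0 changed sign: the B-box median in 5 settings, the cold regulators' in 4, the light and brassinosteroid medians in 3 each and the root markers' in 1. Depth of 33066761 to 45346301 reads limits genes under about 1 RPKM most, and 3 libraries per group limit small changes.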

Other observations

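Further groups of genes were chosen after their values were seen, so their counts are descriptions. All 17 genes tested of phenylpropanoid and monolignol synthesis, which makes lignin precursors, were below 0 (median -0.62), and 6 were called lower: PAL2 (-1.25), CYP73A5 (-0.92), 4CL1 (-0.93), CSE (-0.60), OMT1 (-0.55) and CAD4 (-0.85). PAL2, which takes phenylalanine into the pathway, stood at 57.8, 50.7 and 57.2 RPKM in the wild type and 20.2, 30.8 and 24.5 RPKM in the knockout-labelled line. Of 16 genes of aspartate-derived amino acids and the methionine cycle 5 were lower and 0 higher (median -0.33), among them CGS1, which commits carbon to methionine (-0.52). Of 17 genes of shikimate and tryptophan synthesis 4 were lower and 0 higher (median -0.67), among them the tryptophan synthase subunit TSA1 (-0.94). Of all genes tested, 0.732% were called lower. Of the genes named here, OMT1 and CGS1 missed the threshold of edgeR with the 6 compared libraries alone (adjusted p = 0.0533 and adjusted p = 0.0552).

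Of 7 growth-regulating factors tested 2 were higher, GRF1 and GRF3, and all 7 were above 0 (median 0.94). GRF1, which promotes leaf cell proliferation, stood at 3.15, 4.03 and 4.33 RPKM in the wild type and 10.6, 10.3 and 8.06 RPKM in the knockout-labelled line, and GRF3 at 1.74, 4.07 and 2.802 RPKM in the wild type and 7.88, 8.65 and 8.60 RPKM in the knockout-labelled line. Of 15 SnRK2 kinases and ABF factors of abscisic acid signalling 4 were higher: SNRK2.2, SNRK2.3, ABI5 and ABF1. The median of that list was 0.04, and of all genes tested 0.927% were called higher. With the 6 compared libraries alone, GRF3 and SNRK2.2 missed the threshold of edgeR (adjusted p = 0.0653 and adjusted p = 0.0711).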
